A study of Mus musculus with 6 samples.

Results

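The TGF-beta and activin pathway was followed through 10 of its genes in mouse macrophages that were wild type (WT) or lacked progranulin (PGRN KO). The members were taken by name from the deposited table of 54532 genes: the ligand genes Tgfb1 and Inhba, the receptor genes Tgfbr1, Tgfbr2 and Acvr1b, the signal carriers Smad2, Smad3 and Smad4, and the inhibitors Smad7 and Skil. All 10 passed the filter on low values, a mean of at least 1 FPKM (fragments scaled to gene length and library size) over the 6 libraries. RNA sequencing was available for 3 WT libraries (replicates 1, 2 and 3) and 3 PGRN KO libraries (replicates 4, 5 and 6), each from macrophages of C57BL/6J mice. Cells of both genotypes were plated at 2000000 per well, kept in DMEM with serum and exposed for 6 hours to Candida albicans, a yeast that can infect the blood and organs, at 1 fungal cell per macrophage. Unchallenged cells were not analysed here, so each difference compares the genotypes within the challenge. According to the methods of the study, the PGRN KO mice came from the Jackson Laboratory and the WT mice from Chongqing Medical University, so genotype and source of the mice cannot be told apart. The mice were matched by age and sex, and neither is stated for these libraries. The labels describe macrophages recruited from the peritoneal cavity, while the study itself speaks of cells derived from bone marrow and of another ratio of fungus. The labels were followed. Nothing states that the libraries came from separate mice or cultures, so p-values measure only the spread between these libraries, which may be technical.

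TGF-beta and activin are secreted dimers of one protein family. Each binds a type II receptor kinase, which switches on a type I receptor kinase. The type I receptor then phosphorylates Smad2 and Smad3, which join the shared partner Smad4, enter the nucleus and change transcription. Among the genes switched on in this way are Smad7 and Skil, whose proteins inhibit the pathway and close a feedback loop. In macrophages, TGF-beta is known for restraining inflammatory gene expression and for supporting repair, and activin A, the dimer made from Inhba, is released by macrophages after inflammatory stimuli.

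The deposited values corresponded to 15996786 to 17551619 fragments per library. Grn, the gene of progranulin, stood at 323, 337 and 325 FPKM in WT and at 0.0166, 0 and 0.0167 FPKM in PGRN KO, so the knockout was seen in every library. The macrophage markers, 7 genes, summed to between 7091 and 7425 FPKM in WT and between 7239 and 9721 FPKM in PGRN KO, most of it from Lyz2. Within this list Csf1r, the receptor for macrophage colony-stimulating factor, was significantly lower (log2 fold change -0.38, adjusted p = 0.0178 by limma) and Mertk, a receptor for the uptake of dead cells, significantly higher (0.81, adjusted p = 0.0064), and the groups were also separate for Itgam and Mrc1, lower, and for Lyz2, higher. Gata6, a factor that defines resident macrophages of the peritoneum, lay between 3.78 and 4.26 FPKM in WT and between 3.84 and 5.07 FPKM in PGRN KO, while Timd4, another marker of these cells, was at most 0.204 FPKM. Of the 3 tested genes of that list of 7, Icam2 was significantly higher in PGRN KO (0.57, adjusted p = 0.00914). The 5 B cell markers summed to between 1.5 and 2.49 FPKM in WT and between 6.62 and 8.92 FPKM in PGRN KO, and the 5 mast cell markers to between 2.23 and 3.19 and between 9.31 and 13.9 FPKM, and 2 genes of each of these lists were significantly higher. Kit, of the mast cell list, leaned the other way and was below the filter. It was at 0.423, 0.395 and 0.218 FPKM in WT and 0.343, 0.130 and 0.156 FPKM in PGRN KO. The 10 markers of mesothelial cells and fibroblasts summed to between 1.01 and 1.195 FPKM in WT and between 1.255 and 2.26 FPKM in PGRN KO. These sums were low but did not overlap. Col1a1, Col1a2 and Col3a1 were higher in every PGRN KO library than in any WT library. For the rest of this list the groups overlapped, with Lrrn4 at 0, and all 10 were below the filter and not tested. The 6 neutrophil markers summed to at most 0.487 FPKM with Ly6g and Elane at 0. The 6 markers of T and NK cells summed to between 2.23 and 4.85 FPKM, and the 5 markers of platelets to between 46.8 and 71.3 FPKM, with Gp1bb at 0 and with Pf4, which macrophages also express, among them. The part of these other cell types in the results was not tested. PGRN KO replicate 6 stood apart from the other libraries: across genes, the deviation of its levels fell with the length of the gene (Spearman rho -0.47, against 0.15 to 0.24 in the others), and it was the lowest of the 6 libraries for 9 of the 10 members, all but Tgfb1. Results are therefore given with and without it.

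Smad2 and Smad4 were significantly lower in PGRN KO macrophages when compared with WT, at 66.6% and 70.2% of the WT mean (limma on log2(FPKM + 1) over 8882 genes, Benjamini-Hochberg adjusted p = 0.00744 and 0.0144). No member was significantly higher. Lower calls thus covered 2 of 10 members, against 13.8% of all tested genes, and higher calls 0 of 10, against 10.4%. In bulk RNA, fewer cells of a type and less RNA per cell cannot be told apart. A further 4 members, Inhba, Skil, Tgfbr1 and Smad7, had all 3 PGRN KO libraries below all 3 WT libraries without passing the threshold. The groups were thus separate and lower for 6 of 10 members, against 27.6% of tested genes, and separate and higher for 0 of 10, against 21.2%. The median log2 fold change was -0.32 over the members and -0.03 over all tested genes. The members are 3549 to 9694 bases long, while these shares and this median cover genes of all lengths. Over 4177 tested genes of 3500 to 10000 bases, the median deviation from the gene mean was 0.0331 to 0.0434 (log2) in the WT libraries. In PGRN KO replicates 4, 5 and 6 it was -0.0115, -0.0033 and -0.0923. Shares among genes of like length were not counted. Without PGRN KO replicate 6, Inhba and Skil passed the threshold as well, and 4 members were lower. In that fit 2230 of the 8882 tested genes were lower, against 1230 with all 6 libraries. The scale bore on the counts: of all calls, 42.8% were higher in PGRN KO as deposited, 60.3% after scaling to TPM and 62.9% when library size was the sum of fragments. On the latter scales 0 and 1 members were significantly lower, beside 608 and 695 of all tested genes.

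**Figure D1:**
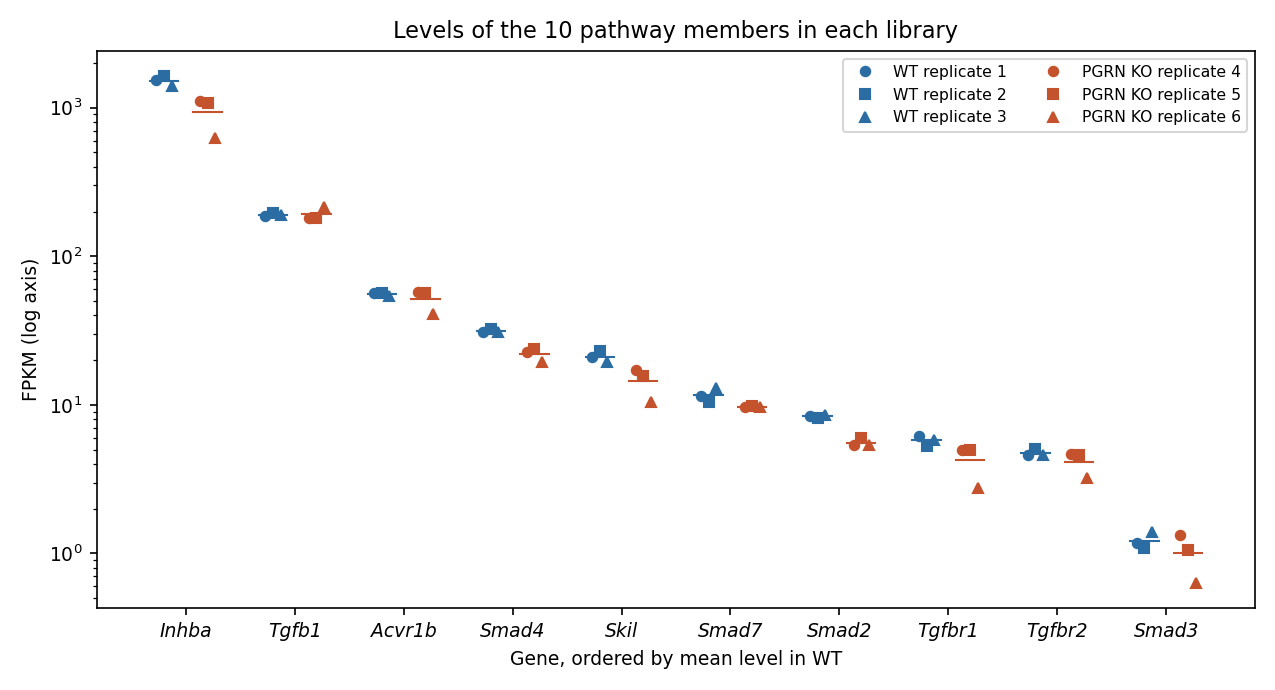
Level of each member in FPKM on a log axis, for WT replicates 1 to 3 (blue) and PGRN KO replicates 4 to 6 (red), with 1 point per library and a bar at the mean of each genotype. The genes range from Inhba, at 1523 FPKM in WT, down to Smad3, at 1.22 FPKM, and the red points lie wholly below the blue ones for Inhba, Skil, Tgfbr1, Smad2, Smad4 and Smad7.

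The members covered a wide range of levels per length, and the order was the same in both genotypes. From highest to lowest it was Inhba, Tgfb1, Acvr1b, Smad4, Skil, Smad7, Smad2, Tgfbr1, Tgfbr2 and Smad3. In WT no neighbors in this order overlapped over the 3 libraries, and in PGRN KO the overlap of Tgfbr1 with Tgfbr2 was the single one. The levels of the ligand Inhba and of the carrier Smad3 thus stood at the ends of the order. The fragments behind a value ran from 61 for Smad3 in PGRN KO replicate 6 to 165213 for Inhba in WT replicate 1, so that counting error was largest for Smad3 relative to its level.

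Inhba (ENSMUSG00000041324, chr13:16011851-16031621, plus strand, GRCm38) encodes the beta A subunit, from which activin A is built. Its level was 1545, 1631 and 1391 FPKM in WT replicates 1, 2 and 3 and 1101, 1079 and 626 FPKM in PGRN KO replicates 4, 5 and 6. The groups did not overlap, and PGRN KO replicate 6 lay well below the other PGRN KO libraries. The mean was 1523 ± 122 FPKM (SD, n = 3) in WT and 935 ± 268 FPKM (SD, n = 3) in PGRN KO. Over all 6 libraries this was the largest difference among the members, with a log2 fold change of -0.75 ± 0.23 (SE; 95% interval -1.28 to -0.21), and it missed the threshold (adjusted p = 0.0542 by limma; exact two-sided permutation test, p = 0.1, the smallest that 3 against 3 allow). Without PGRN KO replicate 6 the difference was -0.48 ± 0.08 (SE) on the log2 scale, about that of Smad2 (-0.49), and passed (adjusted p = 0.00581). After a correction of each library for gene length it was -0.66 (adjusted p = 0.0300). PGRN KO replicates 4 and 5 averaged 71.6% of the WT mean and replicate 6 was at 41.1%. Inhba is overlapped on the opposite strand by B230303A05Rik and Gm48444, each with at most 177 fragments in a library, and the use of strand in counting was not stated.

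The stretch in front of Inhba is shown because this gene had the highest level of the members and, over all 6 libraries, the largest difference, and because Smad3 and Smad4 bind the letters CAGAC, read as GTCTG on the other strand. The 250 bases before its RefSeq start (GRCm38.p6, chr13:16011601-16011850, plus strand) are printed 5' to 3', with any match in capitals, and hold neither word.
Inhba: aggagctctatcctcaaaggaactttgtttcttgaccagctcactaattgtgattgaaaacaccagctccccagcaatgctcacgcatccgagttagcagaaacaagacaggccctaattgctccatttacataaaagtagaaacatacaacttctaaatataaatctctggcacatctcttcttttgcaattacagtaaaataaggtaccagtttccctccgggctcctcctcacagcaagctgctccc
For 6 of the members, 7 promoters were read, and 2 of these 7 held either word, Tgfbr1 at 1 of its starts, 203 bases before it, and Tgfbr2, 160 bases before. The share, 28.6%, stands beside 42.2% of the 32851 promoters of the same length that were read. A match of letters is a description and not a bound site.

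Tgfb1 (ENSMUSG00000002603, chr7:25687002-25705077, plus strand) encodes TGF-beta 1, which is secreted in a latent form. Its level was 185, 196 and 189 FPKM in WT and 182, 180 and 214 FPKM in PGRN KO. The groups overlapped, and the highest and the lowest library were both PGRN KO. The means were 190 ± 5.53 and 192 ± 19.2 FPKM (SD, n = 3 each), with a log2 fold change of 0.01 ± 0.10 (SE; 95% interval -0.23 to 0.25; adjusted p = 0.949 by limma). Without PGRN KO replicate 6 it was -0.07. The ligand genes therefore differed in their values: Inhba separated by genotype and Tgfb1 did not, though the difference between these genes was not tested.

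The genes whose profile over the 6 libraries was most like that of Inhba were Rsbn1, P2ry10b and Atp2b4, with root mean square differences of 0.0342, 0.0411 and 0.0426 on the centered log2 scale. Their log2 fold changes were -0.75, -0.69 and -0.75. Each also had its lowest level in PGRN KO replicate 6: Rsbn1 stood at 7.80 FPKM there, against 14.4 and 13.6 FPKM in PGRN KO replicates 4 and 5.

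The receptor genes showed no significant difference. Acvr1b (ENSMUSG00000000532, chr15:101174067-101213684, plus strand), the type I receptor for activin, was the most abundant of them, at 56.1, 57.0 and 54.2 FPKM in WT and 57.3, 56.8 and 40.9 FPKM in PGRN KO. PGRN KO replicate 4 lay above the WT libraries, replicate 5 among them and replicate 6 below them. Its log2 fold change was -0.12 (95% interval -0.46 to 0.21; adjusted p = 0.547 by limma), and 0.03 without that library. Tgfbr1 (ENSMUSG00000007613, chr4:47353222-47414931, plus strand), the type I receptor for TGF-beta, was at 6.21, 5.30 and 5.83 FPKM in WT and 5.00, 4.99 and 2.75 FPKM in PGRN KO. The groups did not overlap, by a narrow margin in PGRN KO replicates 4 and 5 and a wide one in replicate 6. The log2 fold change was -0.40 (95% interval -0.85 to 0.05; adjusted p = 0.166), and -0.18 without PGRN KO replicate 6. Tgfbr2 (ENSMUSG00000032440, chr9:116084293-116175360, minus strand), the type II receptor for TGF-beta, was at 4.58, 5.06 and 4.62 FPKM in WT and 4.65, 4.57 and 3.20 FPKM in PGRN KO. These groups overlapped, and the log2 fold change of -0.17 (95% interval -0.49 to 0.14; adjusted p = 0.371) shrank to -0.03 without PGRN KO replicate 6. For all 3 receptors the interval included 0, and the values without PGRN KO replicate 6 were closer to 0.

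Smad2 (ENSMUSG00000024563, chr18:76241580-76305731, plus strand), a carrier that the type I receptors phosphorylate, had the lowest p of the members. Its level was 8.35, 8.21 and 8.54 FPKM in WT and 5.39, 5.95 and 5.38 FPKM in PGRN KO. All 3 PGRN KO libraries were below all 3 WT libraries, and replicate 6 lay close to the other PGRN KO libraries. Smad2 fell from 8.37 ± 0.166 to 5.57 ± 0.329 FPKM (SD, n = 3 each). The difference in log2 was -0.51 ± 0.08 (SE; 95% interval -0.71 to -0.32; adjusted p = 0.00744 by limma; exact permutation test, p = 0.1). It was -0.49 without PGRN KO replicate 6 (adjusted p = 0.0026). The call was kept in 17 of 18 alternative settings and was lost on the TPM scale (-0.46, adjusted p = 0.0535).

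Smad4 (ENSMUSG00000024515, chr18:73639009-73703780, minus strand), the partner that both the TGF-beta and the bone morphogenetic protein (BMP) branches need, was at 30.8, 32.1 and 30.7 FPKM in WT and 22.7, 23.6 and 19.4 FPKM in PGRN KO. The groups did not overlap, and the gap between them was wider than the spread within either. Smad4 fell from 31.2 ± 0.795 to 21.9 ± 2.24 FPKM (SD, n = 3 each). The difference in log2 was -0.50 ± 0.10 (SE; 95% interval -0.73 to -0.26; adjusted p = 0.0144 by limma; exact permutation test, p = 0.1). It was -0.41 without PGRN KO replicate 6 (adjusted p = 0.0023). The call was lost without WT replicate 1, 2 or 3 (adjusted p = 0.0697, 0.0704 and 0.0578), on the TPM scale (0.0861) and with the sum of fragments as library size (0.0503), with the log2 fold change between -0.55 and -0.38 in all 18 alternatives.

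Smad3 (ENSMUSG00000032402, chr9:63646767-63757994, minus strand), the other receptor-activated carrier and the one that binds DNA directly, was scarce, at 1.18, 1.09 and 1.40 FPKM in WT and 1.32, 1.05 and 0.637 FPKM in PGRN KO. The groups overlapped, and only PGRN KO replicate 6 lay clearly below the rest. The log2 fold change was -0.16 (95% interval -0.51 to 0.19; adjusted p = 0.453 by limma), and -0.02 without that library.

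The inhibitors of the pathway did not pass the threshold, although each had its 3 PGRN KO libraries below its 3 WT libraries. Smad7 (ENSMUSG00000025880, chr18:75367529-75395935, plus strand), which blocks the type I receptors, was at 11.5, 10.4 and 13.0 FPKM in WT and 9.66, 9.80 and 9.62 FPKM in PGRN KO. The PGRN KO libraries were nearly level and lay just under the lowest WT library. The log2 fold change was -0.23 (95% interval -0.47 to -0.001, adjusted p = 0.127 by limma). Skil (ENSMUSG00000027660, chr3:31095058-31122577, plus strand), which encodes SnoN, a repressor of Smad complexes, was at 21.1, 22.9 and 19.4 FPKM in WT and 17.1, 15.7 and 10.4 FPKM in PGRN KO. The groups did not overlap, with PGRN KO replicate 6 far below the others. The means were 21.1 ± 1.78 and 14.4 ± 3.52 FPKM (SD, n = 3 each), with a log2 fold change of -0.55 ± 0.18 (SE; adjusted p = 0.0651 by limma). Skil passed the threshold without PGRN KO replicate 6 (-0.35, adjusted p = 0.0192) and with the correction for gene length (-0.39, adjusted p = 0.0289).

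Smad2, Smad4 and Smad7 lie in 1 stretch of 2.67 Mb on chromosome 18 (73639009 to 76305731). Of the 11 other tested genes in this stretch, 0 were significantly lower and 0 higher by limma, and their median log2 fold change was 0.03. The shares over all tested genes were 13.8% and 10.4%, and 11 genes are too few to tell 0 from these. Among the 11, Snord58b, Gm23301 and Gm26202 were imprecise, with SE of 0.32 to 0.45. The stretch was chosen after the positions of the members had been seen.

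**Figure D2:**
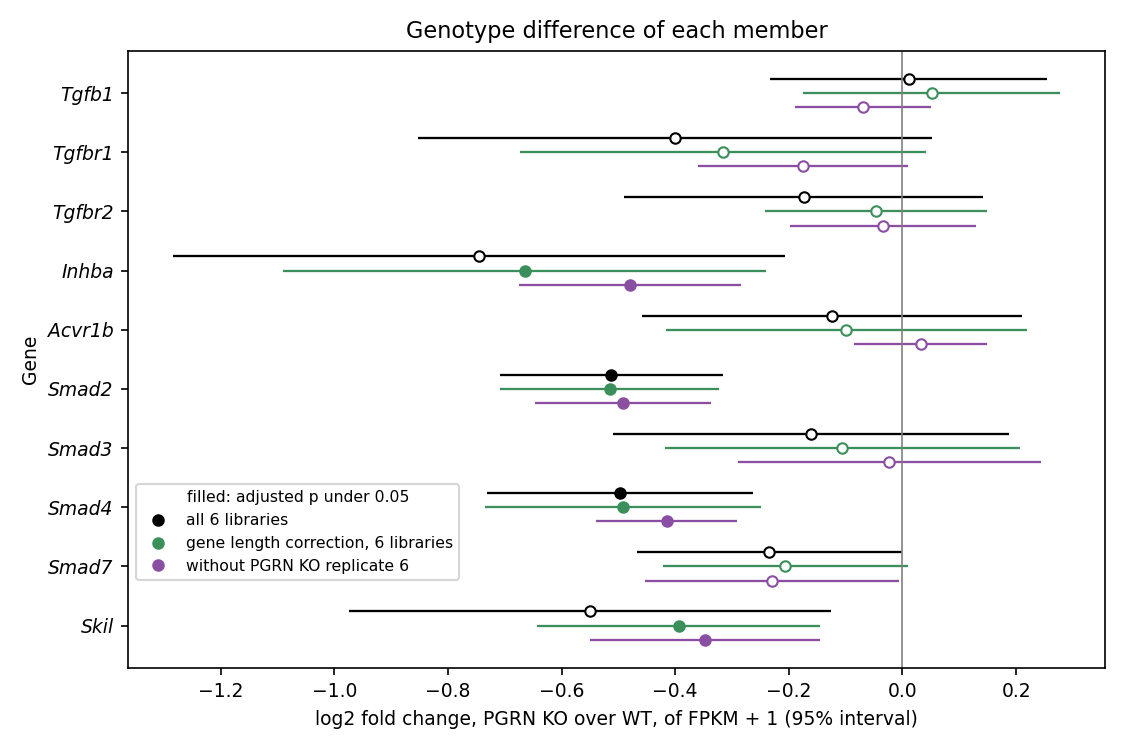
log2 fold change of each member, PGRN KO over WT, with its 95% interval, for all 6 libraries (black), with a correction for gene length (green) and without PGRN KO replicate 6 (purple), where filled points have an adjusted p under 0.05. Smad2 and Smad4 are filled in all 3 fits, and Inhba and Skil are filled in the latter 2, where their intervals are narrower.

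**Figure D3:**
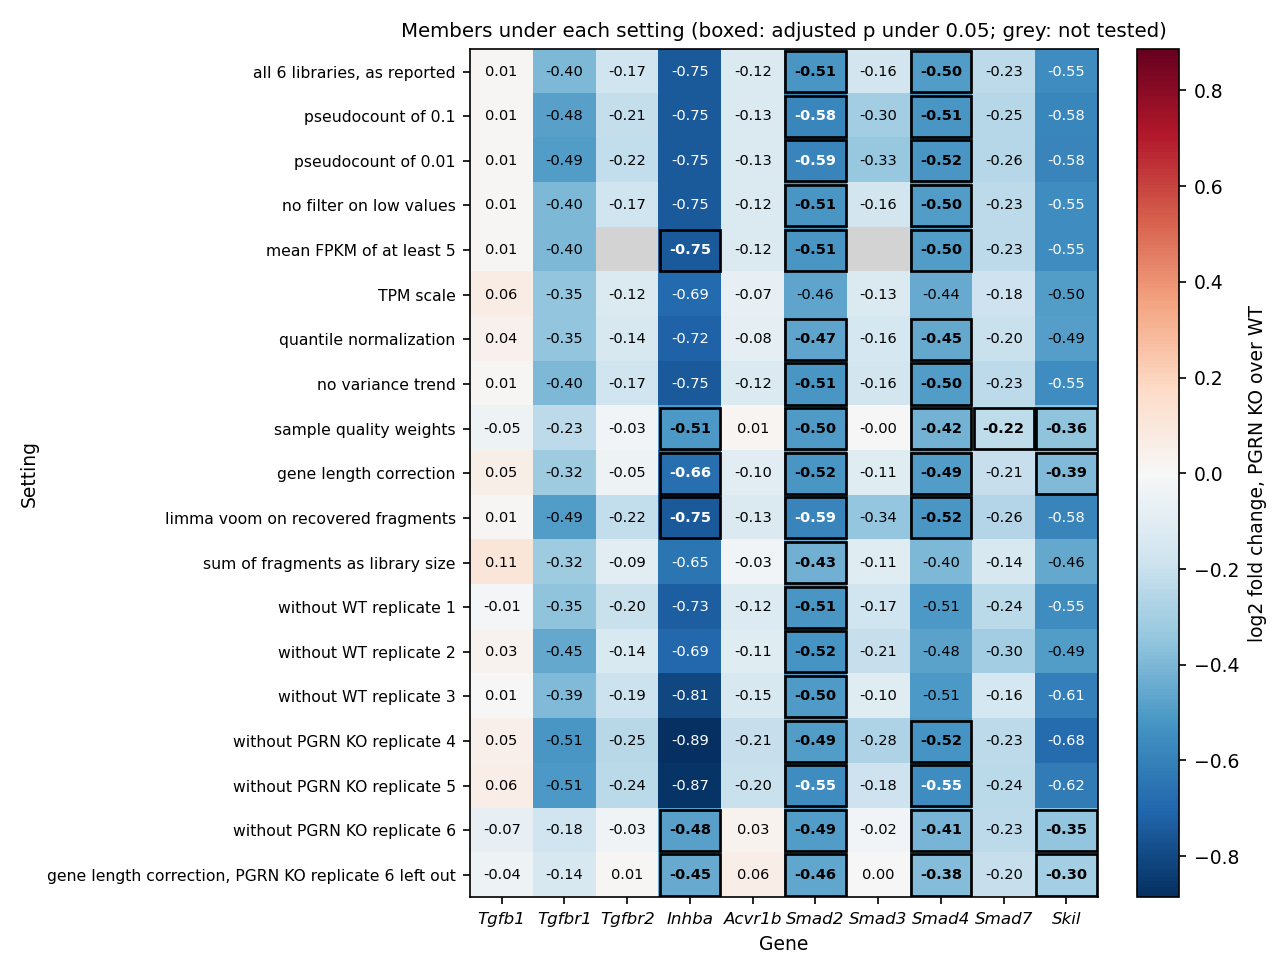
log2 fold change of each member, PGRN KO over WT, by color and number, for the reported setting and 18 alternatives, where a box marks an adjusted p under 0.05 and grey a gene that was not tested. Smad2 is boxed in 17 alternatives, Smad4 in 13, Inhba in 6, Skil in 4 and Smad7 in 1, and the other 5 members in 0.

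A wider set of 85 genes of the pathway, none of them a member, was read in 8 lists by role. Of these, 49 were tested, 12 were significantly lower in PGRN KO, 3 were significantly higher, and 34 did not pass. The called share was 30.6%, against 24.2% of all tested genes, and the median log2 fold change was -0.25. This share leaned on the transcriptional targets, which held 7 of the 12 lower genes and had 63.6% of their tested genes called. The receptors, extracellular inhibitors and positive cofactors had 0% called, and the latency genes 22.2%. The lists were drawn up with earlier results known, so the share is no independent evidence about the pathway. Most ligands other than the members were near 0, among them Tgfb2 (0.064 FPKM), Tgfb3 (0.231 FPKM) and Inhbb (0.002 FPKM), and Inha was at 0, so Tgfb1 and Inhba were the main transcripts for TGF-beta and activin. Of 2 other ligands tested, Gdf15, a stress-induced relative of TGF-beta, fell from 461 ± 64.0 to 285 ± 52.1 FPKM (log2 fold change -0.70, adjusted p = 0.0244 by limma), a call that was lost without WT replicate 1 or 2 or PGRN KO replicate 4 or 5 (adjusted p = 0.0985, 0.097, 0.0723 and 0.0678) and with no filter (0.0744). Bmp2 was at 2.15 ± 0.310 and 3.37 ± 0.677 FPKM (adjusted p = 0.0541). None of the 6 other receptors tested passed, among them Eng and Acvrl1, which serve TGF-beta and BMP in endothelium, at log2 fold changes of 0.26 and -0.35 (adjusted p = 0.145 and 0.0717), and Acvr1 at 0.01. Acvrl1 passed without PGRN KO replicate 6 (-0.47, adjusted p = 0.00292).

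Of 9 tested genes that hold or release latent TGF-beta, 1 was lower, 1 was higher and 7 did not pass. The called share was 22.2%, near the 24.2% of all tested genes. Lrrc32, which anchors latent TGF-beta at the cell surface, was at 77.1, 73.5 and 77.6 FPKM in WT and 53.3, 59.9 and 46.6 FPKM in PGRN KO. The groups did not overlap, and Lrrc32 fell by 0.51 on the log2 scale (adjusted p = 0.0185 by limma). Ltbp3, a latent TGF-beta binding protein, rose from 6.18 ± 0.371 to 7.89 ± 0.265 FPKM (log2 fold change 0.31, adjusted p = 0.0396). The Lrrc32 call was lost without any WT replicate (adjusted p = 0.0892, 0.0676 and 0.0741) or PGRN KO replicate 4 (0.0525), and that of Ltbp3 when any library except PGRN KO replicate 6 was left out (0.0751 to 0.172). The Lrrc32 call was also lost on the TPM scale (0.101), with quantile normalization (0.0627) and with fragment sums as library size (0.0676), and that of Ltbp3 with no filter (0.065) and on the TPM scale (0.0883). Thbs1, an activator of latent TGF-beta, was at 239 ± 19.4 and 160 ± 36.9 FPKM (adjusted p = 0.0536), and at 0.0117 without PGRN KO replicate 6. The proteases Mmp14 and Furin were at log2 fold changes of 0.00 and -0.07 (adjusted p = 0.994 and 0.631). Of the 7 extracellular inhibitors, Fst, the activin antagonist follistatin, was the single one tested, at 3.67 ± 0.826 and 3.33 ± 0.165 FPKM (adjusted p = 0.659).

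Inside the cell, Smads of the BMP branch did not pass the test, with log2 fold changes of 0.04 for Smad1 and 0.07 for Smad5 (adjusted p = 0.811 and 0.676). Dab2, an adaptor of endocytosis that links receptors to Smads, was at 14.3, 14.9 and 14.4 FPKM in WT and 30.2, 31.2 and 20.53 FPKM in PGRN KO. Dab2 was higher in all 3 PGRN KO libraries, least so in replicate 6, and rose by 0.84 on the log2 scale (adjusted p = 0.0123 by limma), a call that was lost without WT replicate 1, 2 or 3 (0.0574, 0.0502 and 0.0529). The negative regulators held 3 lower and 1 higher gene of 10 tested, against 13.8% lower and 10.4% higher among all tested genes. Ski, the closest relative of Skil and likewise a repressor of Smad complexes, fell from 17.1 ± 1.32 to 10.1 ± 1.21 FPKM (log2 fold change -0.72, adjusted p = 0.00665), a call that stood in all 18 alternatives. Pmepa1, a TGF-beta-induced inhibitor of Smad2 and Smad3, went the other way, from 7.28 ± 0.645 to 11.9 ± 1.17 FPKM (0.63, adjusted p = 0.00818), also in all 18. Nedd4l, a ubiquitin ligase, and Ppm1a, a phosphatase, fell by 0.42 and 0.31 on the log2 scale (adjusted p = 0.0204 and 0.0409), and with the correction for gene length both calls were lost (adjusted p = 0.208 and 0.502). Both were also lost without any WT replicate (0.0617 to 0.148) or PGRN KO replicate 4 (0.0504 and 0.0725), and Ppm1a without PGRN KO replicate 5 (0.0805). Over all alternatives the call of Nedd4l stood in 9 of 17 and that of Ppm1a in 7 of 18, with losses on the TPM scale (0.0922 and 0.239), with no filter (0.0541 and 0.067) and with fragment sums as library size (0.0588 and 0.19) as well. Of the positive cofactors, 0 of 6 tested passed the threshold, and 1, Rnf111, did so without PGRN KO replicate 6 (-0.19, adjusted p = 0.0364).

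**Figure D4:**
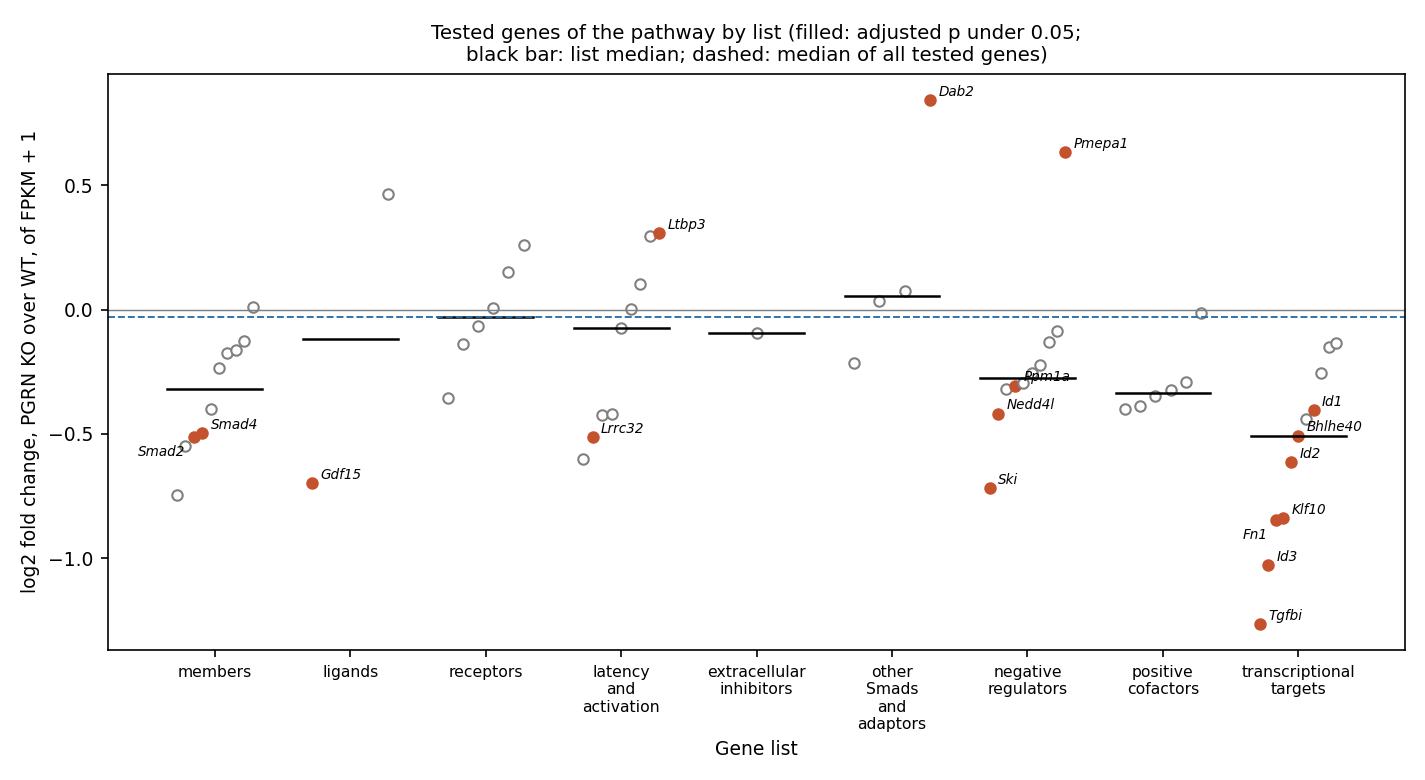
log2 fold change, PGRN KO over WT, of the 10 members and of the 49 tested genes of the 8 pathway lists, with 1 point per gene, filled where the adjusted p was under 0.05, a black bar at each list's median and a dashed line at the median of all tested genes, -0.03. The transcriptional targets have the lowest median, -0.51, and hold 7 of the 12 genes called lower.

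The transcriptional targets, 15 genes known to be switched by TGF-beta, activin or BMP in various cells, held the most calls: 7 of 11 tested were significantly lower in PGRN KO and 0 were higher, and their median log2 fold change was -0.51. Of all tested genes, 13.8% were lower and 10.4% higher. The rest of the 15 were below the filter and not tested. Among them Col1a1 was higher in every PGRN KO library (0.402 to 0.792 FPKM) than in any WT library (0.165 to 0.264 FPKM). For the others below the filter the groups overlapped. Pmepa1, also induced by TGF-beta, was placed with the negative regulators and was significantly higher (0.63, adjusted p = 0.00818 by limma). The list was drawn up with earlier results of these data known, so its count is no independent evidence of its direction, and many of these genes also respond to other signals. Without PGRN KO replicate 6, 9 were lower, and without WT replicate 1 or 2, 3 and 4 were. Of all 8882 tested genes, 2230, 382 and 443 were lower in these fits.

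Tgfbi, an extracellular matrix protein named for its induction by TGF-beta, had the lowest log2 fold change of the list. It was at 32.0, 32.1 and 32.1 FPKM in WT and at 12.6, 11.1 and 14.8 FPKM in PGRN KO. The WT libraries were level, and every PGRN KO library was far below them. Tgfbi fell from 32.1 ± 0.0473 to 12.9 ± 1.85 FPKM (SD, n = 3 each). The difference on the log2 scale was -1.26 ± 0.11 (SE, adjusted p = 0.0014 by limma), with a call in all 18 alternatives.

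The genes Id1, Id2 and Id3 encode inhibitors of helix-loop-helix factors and are classical targets of the BMP branch, which TGF-beta can also change. Id3 was at 16.6, 19.4 and 15.7 FPKM in WT and 6.38, 8.35 and 9.27 FPKM in PGRN KO. The groups were far apart, and PGRN KO replicate 6 was the nearest to WT. Id3 fell by 1.03 on the log2 scale (SE 0.15, adjusted p = 0.00513 by limma), with a call in all 18 alternatives. Id2, the most abundant of them, fell from 399 ± 28.9 to 260 ± 3.44 FPKM (-0.61, adjusted p = 0.00674), and lost its call without WT replicate 1 (0.0528). Id1, at 2.32 ± 0.214 and 1.51 ± 0.145 FPKM, fell by 0.40 (adjusted p = 0.0281), and lost its call when any library except PGRN KO replicate 6 was left out (0.0559 to 0.125), with no filter (0.0758), on the TPM scale (0.0886), with voom on the fragments (0.0715) and with fragment sums as library size (0.0749), so that it stood in 8 of 17 alternatives.

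The promoters of Tgfbi and Id3 are shown because these targets fell most, and because both hold the Smad-binding letters that the Inhba stretch lacks. They are the 250 bases before the RefSeq start (GRCm38.p6), both on the plus strand, at chr13:56609336-56609585 for Tgfbi and chr4:136143572-136143821 for Id3, printed 5' to 3' with the words CAGAC and GTCTG in capitals.
Tgfbi: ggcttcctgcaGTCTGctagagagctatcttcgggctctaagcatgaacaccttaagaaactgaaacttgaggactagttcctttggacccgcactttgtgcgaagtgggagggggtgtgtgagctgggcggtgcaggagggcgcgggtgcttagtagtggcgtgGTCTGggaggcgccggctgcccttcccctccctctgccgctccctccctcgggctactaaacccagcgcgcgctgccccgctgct
Id3: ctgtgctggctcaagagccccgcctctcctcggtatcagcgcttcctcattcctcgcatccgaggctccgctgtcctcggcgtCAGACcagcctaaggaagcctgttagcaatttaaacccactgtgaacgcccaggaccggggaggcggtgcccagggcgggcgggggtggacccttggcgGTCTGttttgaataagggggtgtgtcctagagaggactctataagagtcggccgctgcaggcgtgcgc
In Tgfbi, GTCTG begins 239 and 85 bases before the start, and in Id3, CAGAC begins 167 bases and GTCTG 68 bases before it. Among the other called genes whose promoters were read, Id2, Ski and Ppm1a, which fell, held neither word. Gdf15, which fell, and Dab2 and Ltbp3, which rose, held a match. Since 42.2% of the 32851 promoters that were read hold either word at least once, holding a match sets neither Tgfbi nor Id3 apart. Both hold 2 matches, and the share of promoters with as many was not counted.

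Klf10, an early TGF-beta-induced repressor, fell from 5.95 ± 0.502 to 2.90 ± 0.490 FPKM (log2 fold change -0.84, adjusted p = 0.00539 by limma). Bhlhe40, a transcription factor of activated immune cells, fell from 253 ± 12.1 to 177 ± 4.62 FPKM (-0.51, adjusted p = 0.00929), and lost its call without WT replicate 1 or 2 (0.0673 and 0.0535). Fn1, the matrix protein fibronectin, was at 267, 268 and 254 FPKM in WT and 179, 179 and 97.0 FPKM in PGRN KO. The groups did not overlap, and PGRN KO replicate 6 was again the lowest. Fn1 fell by 0.85 on the log2 scale (adjusted p = 0.0411), and by 0.55 without that library (adjusted p = 0.000955), while the call was lost without WT replicate 1, 2 or 3 (0.127, 0.125 and 0.106). It was also lost with no filter (0.117), on the TPM scale (0.0935), with quantile normalization (0.0885) and with fragment sums as library size (0.0711). Of the targets that did not pass, Cdkn1a, the cell cycle inhibitor p21, was at 447 ± 24.6 and 409 ± 47.4 FPKM (adjusted p = 0.425). Junb, a factor of the AP-1 family, was at 2253 ± 258 and 1669 ± 303 FPKM (adjusted p = 0.0946). Without PGRN KO replicate 6, Junb and Cdkn1a passed, at -0.58 and -0.23 (adjusted p = 0.00758 and 0.0323).

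**Figure D5:**
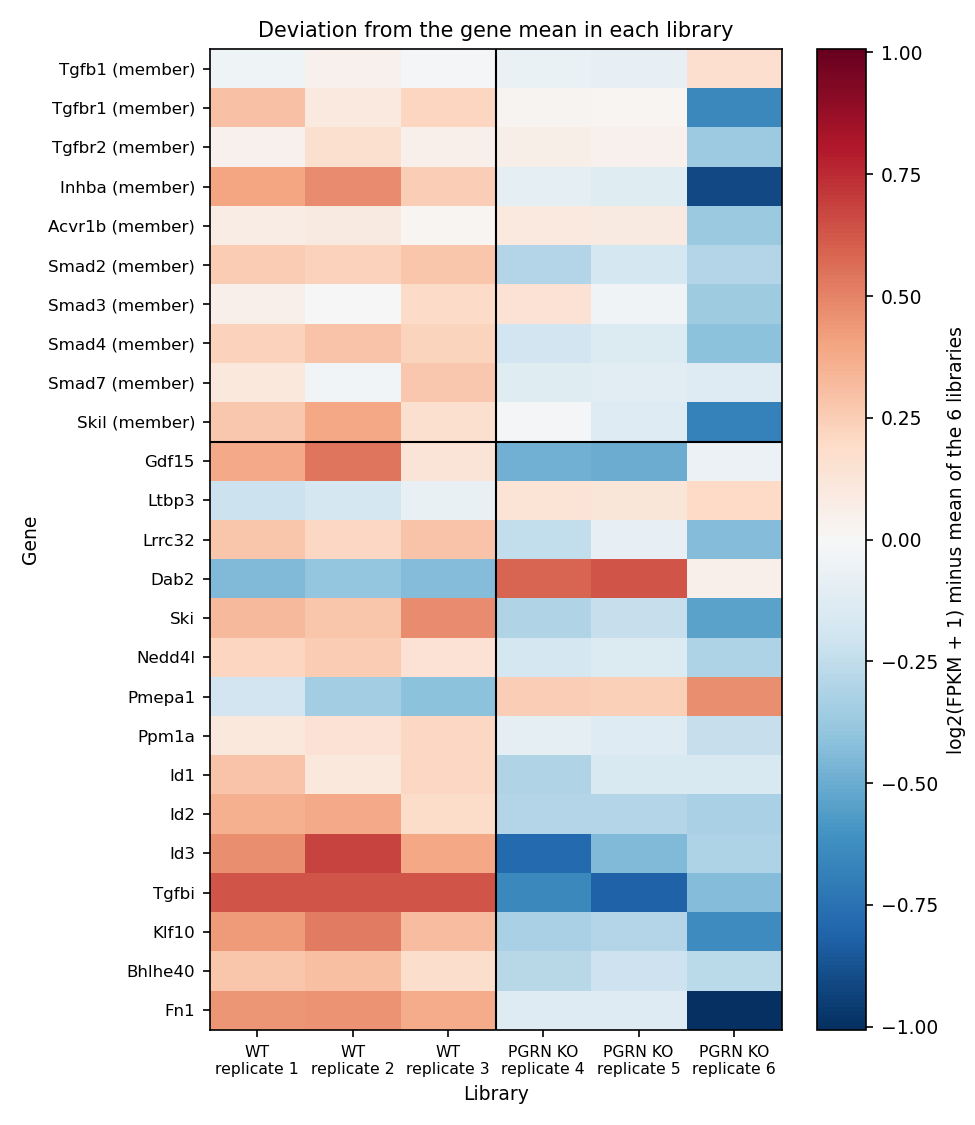
log2(FPKM + 1) of each member and of each pathway gene past the threshold, minus the mean of the 6 libraries, with blue for lower and red for higher levels and 1 column per library. Smad2, Id2, Tgfbi and Bhlhe40 are evenly lower in the 3 PGRN KO libraries, whereas Inhba, Skil, Tgfbr1 and Fn1 are lowest in PGRN KO replicate 6, and Dab2, Pmepa1 and Ltbp3 are higher in PGRN KO.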

How the data were processed

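Per the labels, total RNA of macrophage cultures was made into libraries, 3 of WT and 3 of PGRN KO mice, and the groups were taken from the labels. The submitters' processing notes name CASAVA, HISAT2 2.0.5, featureCounts 1.5.0-p3, DESeq2 1.20.0 and the builds mm10 and GRCm38, whereas the methods of the study name HTSeq for counting. Neither the annotation release nor the use of strand was stated. The deposited unit was FPKM, which the authors made by scaling fragments per gene to the length of the gene model and to a library size. The identifiers of 99.8% of the 54532 genes matched the GENCODE reference, with the same position for 98.3% of these, so coordinates are those of GRCm38.

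FPKM multiplied by gene length came out as whole multiples of 1 step per library for 100% of the values above 0, within 0.001 of a step. WT replicates 1 to 3 thus held 17174420, 15996786 and 17551619 fragments, and PGRN KO replicates 4 to 6 held 16521976, 17400340 and 17291015. The library size behind the deposited values was 0.925 to 1.09 times these sums. Counts of fragments carry counting error beside the spread between libraries, and PCR copies cannot be told from separate molecules.

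Values were analyzed as log2(FPKM + 1), which understates the change of low genes. Genes with a mean of at least 1 FPKM, 8882 in all, were compared between genotypes with limma 3.58.1 in R 4.3.3 (all 6 libraries, no covariates, variance trend, two-sided), and p-values were adjusted over all tested genes by the Benjamini-Hochberg method at a threshold of 0.05. The fit was tested on simulated data beforehand. Those data had the same spread in every library and no trend with gene length. They therefore do not show how the fit handles a library such as PGRN KO replicate 6. For single members the exact permutation test of 3 against 3 libraries is given, which cannot go below 0.1. The alternatives were pseudocounts of 0.1 and 0.01, no filter, a minimum mean of 5 FPKM, sample quality weights, quantile normalization, a TPM scale, a fit with no variance trend, a loess correction for gene length (span 0.5), limma voom on the fragments, the sum of fragments as library size, leaving out each library, and the length correction without PGRN KO replicate 6. The members, the gene lists and these tests were chosen with earlier results of these data known. Genes named in the text were the members, Grn, pathway genes past the threshold, up to 3 others per list by mean FPKM, defining markers, and the 3 genes closest in profile to the member with the largest log2 fold change over all 6 libraries. 1 gene under this rule is not reported here by name, but stays in the counts. Rnf111, the ligands near 0 and Col1a1 among the targets were named after their values had been seen. Promoters came from RefSeq (GRCm38.p6), with no entry for Skil, and those of some members were not read.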

Additional observations from a re-analysis of the deposited data

How the results depend on the processing

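On the reported scale 2 members were significantly lower and 0 higher, and no alternative called a member higher. The number lower was 0 on the TPM scale, 1 with the sum of fragments as library size, 4 with the gene length correction, 4 with that correction and PGRN KO replicate 6 left out, 5 with sample quality weights, and 1 to 4 when each library was left out in turn. The log2 fold change changed sign for Tgfb1 with sample quality weights (-0.0463), with the length correction and PGRN KO replicate 6 left out (-0.0439), and when libraries were left out in turn (-0.0700 to 0.0561). It did so for Acvr1b with sample quality weights (0.0148), with the length correction and PGRN KO replicate 6 left out (0.0605), and when libraries were left out in turn (-0.206 to 0.0320). Under that combined setting Tgfbr2 was at 0.00804 and Smad3 at 0.00364. Of 178 values of members under alternatives, 152 kept their direction and side of the threshold. The cause of these changes was not tested.

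Over all tested genes, 921 were higher and 1230 lower. These counts were 603 and 763 with no filter, 1757 and 2468 with sample quality weights, 1640 and 2024 with the combined setting, and 331 to 1438 and 382 to 2230 when libraries were left out. With a minimum mean of 5 FPKM, which tests fewer genes, 529 were higher, and 608 were lower on the TPM scale and 695 with the sum of fragments. Of the pathway genes, 3 were higher and 12 lower, against 5 and 20 with sample quality weights, 5 and 7 with the sum of fragments, 7 lower with no filter, 5 higher with the combined setting, and 1 to 3 and 4 to 18 when libraries were left out. The transcriptional targets had 7 lower, and 3 to 9 when libraries were left out.

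No paired analysis was possible because the labels name no pairs. The replicate numbers of WT (1 to 3) and PGRN KO (4 to 6) only follow the order of the samples. Whether the cultures were prepared in pairs is not known. Depth limits Smad3 most, with 61 to 140 fragments per library.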
